A study of Homo sapiens with 6 samples.

Results

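The control PANC-1 cells of an ac4C-seq series were examined at every site listed for them, 1352 of the 2353 sites of both groups, by setting 3 libraries of sodium borohydride (NaBH4) treated RNA against the 3 untreated libraries made from the same RNA. PANC-1 is an established human pancreatic cancer cell line. The control cells carried the non-targeting control of a NAT10 knockdown, which the labels name both as a transfected siRNA control and as shControl, and no clone, passage or culture of origin is given for samples 1 to 3, so p-values measure the spread between these samples, which may be technical. In each sample, mRNA was captured from 30 μg of total RNA. The captured RNA was then divided: an aliquot was sequenced without borohydride, and the larger portion was first reduced with 100 mM NaBH4 (30 min, 55 °C). Treated and untreated libraries of a sample were therefore paired by their number. The other group of the series, 3 samples with NAT10 knocked down, has its own table of 1001 sites and is used below only beside the control values.

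N4-acetylcytidine (ac4C) is a cytidine that carries an acetyl group on its exocyclic amine, and NAT10 is the acetyltransferase that writes it on 18S rRNA, on some tRNAs with a partner protein, and by several reports on mRNA. Borohydride reduces ac4C to a tetrahydro form that reverse transcriptase pairs with A, so that cDNA of treated RNA carries a T where that of untreated RNA carries a C. Borohydride under heat is also a harsh treatment of RNA, and the depth of reads left at a site is a measurement of its own. Here that depth is the sum of the 4 base counts at the site.

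The listing fixed one side of the comparison. Every control site had at least 3 mismatched reads in each treated library, a median mismatch level of at least 1% over the 3 treated libraries, and 0 mismatched reads in the 3 untreated libraries. The mismatch level is the share of reads at a site that carry another base than the reference. A difference in mismatch between treated and untreated RNA is therefore given as a description, without a test, while read depth and the kind of base were not used in the listing in the same way. Depth is not wholly free of it, since more treated reads make 3 mismatched reads easier to reach and fewer untreated reads make 0 easier to reach. The part of this in the depth results was not tested.

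The sites lay on chromosomes 1 to 6 and 10 to 22 of GRCh38; other chromosomes were not analysed here. RefSeq gene spans placed 1160 sites in a protein-coding gene of the same strand and 169 in a gene whose strand was not given, over 1017 genes in all, while 16 sites lay in no protein-coding span. Spans do not separate exons, introns or UTRs, so none of these is stated. The reference base was A at 524 sites, C at 394, G at 218 and T at 216. RefSeq promoter windows, which end 50 bases after a transcript start, held 75 sites, and all 75 carried the listed base on the listed strand. Genes that mark the cell type could not be checked, since 0 of 11 epithelial line markers and 0 of 4 markers of other cells had a listed site and expression was not measured.

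Sequence around a few sites is shown first, to set cytidines beside the other bases among the listed sites. Each is written 5′ to 3′ on the strand of the site from the RefSeq windows of GRCh38.p14, and the capital marks the site. ITGB5, an integrin beta subunit that binds the extracellular matrix, and KDM4A, a histone H3 lysine demethylase, have a cytidine whose mismatched reads were mostly T. NOP10, a protein of the H/ACA pseudouridylation complex, and PRMT2, a protein arginine methyltransferase, have a guanosine whose mismatched reads were mostly T. PAPOLA, the poly(A) polymerase, has a uridine, T in the DNA sequence, whose mismatched reads were mostly G.
ITGB5, chr3:124796404-124796424, minus strand: ttctcctgtgCcaggaacaag
KDM4A, chr1:43667898-43667918, plus strand: ccagaagcagCtgagtttctt
NOP10, chr15:34343121-34343141, minus strand: acgcggtcggGcggaccactg
PRMT2, chr21:46635666-46635686, plus strand: cgcgggttgaGggcggtggct
PAPOLA, chr14:96502379-96502399, plus strand: tctagaacgtTgctgtggtag

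More reads were counted at the listed sites in treated than in untreated RNA, in every pair. The treated libraries held 295737, 305063 and 304834 reads over the 1352 sites. Their untreated partners held 199984, 231126 and 244199. The untreated libraries differed more among themselves than the treated ones, and the groups did not overlap. Treated over untreated, this made ratios of 1.48, 1.32 and 1.25 in pairs 1 to 3, with a mean of 1.35 ± 0.118 (SD, n = 3 pairs). It was above 1 in all 3 pairs, and an exact two-sided sign-flip permutation test gave p = 0.25, the smallest value that 3 pairs allow. The full size of each library is not known from the sites, so this ratio mixes the depth of a library with the depth at these sites. In the knockdown cells, at their own sites, the ratio was 1.18 ± 0.0455 (SD, n = 3 pairs). The log2 ratios of control and knockdown differed by 0.19, and an exact two-sided permutation test gave p = 0.10, the smallest value of 3 samples against 3. Without control sample 1 the difference was 0.12.

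The ratio was lowest at adenosines in each pair. At sites with a reference C, treated over untreated reads averaged 1.42 ± 0.141 (SD, n = 3 pairs), at G 1.40 ± 0.109, at T 1.35 ± 0.12 and at A 1.29 ± 0.105. Divided by the ratio at all other sites of the same pair, which removes library depth, the value at cytidines was 1.10, 1.06 and 1.07 in pairs 1 to 3. At adenosines it was 0.906, 0.924 and 0.922, below 1 in 3 of 3 pairs. Guanosines averaged 1.05 ± 0.0113 and were above 1 in 3 of 3 pairs, while uridines averaged 1.00 ± 0.0121. The spread between pairs was smaller than the distance from 1 for C, A and G. For each of these 3 bases the exact sign-flip permutation test gave p = 0.25, adjusted 0.333 over the 4 bases, so the design cannot call any of them. In knockdown cells the relative ratio was 0.924 ± 0.0134 at adenosines and 1.03 ± 0.0176 at cytidines (SD, n = 3 pairs). These values stand beside the control's 0.917 ± 0.00972 and 1.08 ± 0.0206, and the difference between the groups was not tested.

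**Figure D1:**
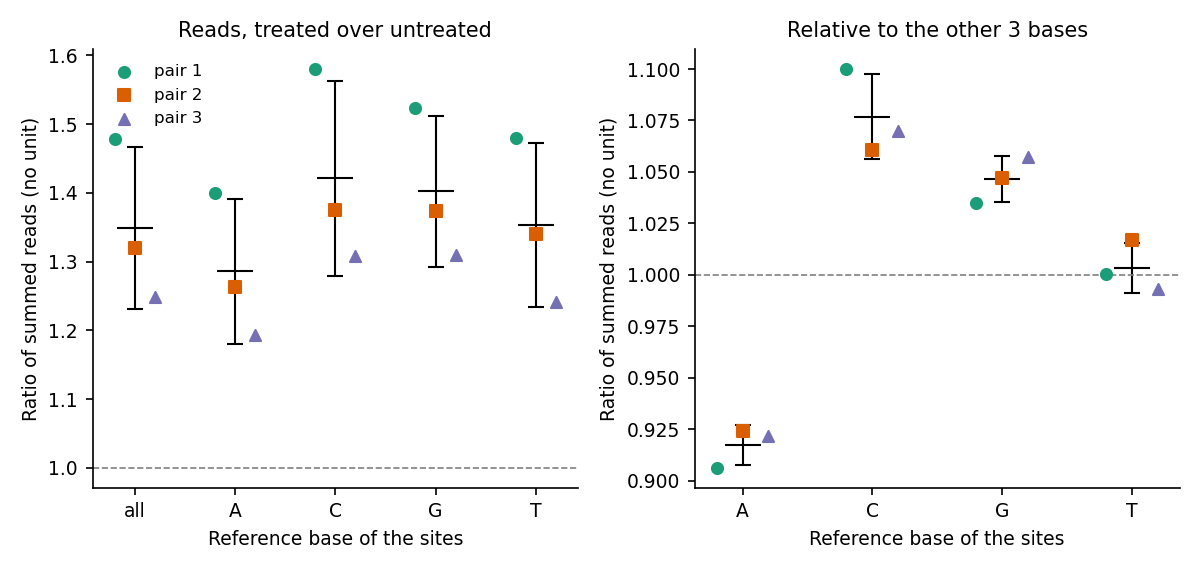
Ratio of reads summed over sites, treated over untreated RNA, for all sites and by reference base (left), and the ratio at each base divided by that at the other 3 bases (right), both without unit. Points are the 3 pairs, and the dash and bars are mean and SD. All pairs lie above 1 on the left, and on the right adenosine lies below 1 and cytidine above 1 in each pair.

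Relative coverage, the reads at a site scaled to the reads of the listed sites in the same library, differed between treated and untreated RNA at 509 of 1352 sites (37.6%). It was higher in treated RNA at 237 sites (17.5%) and lower at 272 (20.1%), by edgeR's quasi-likelihood test with the pair as a block and Benjamini-Hochberg adjusted p under 0.05 over all sites. Before adjustment, 627 sites had p under 0.05. The values are log2 of treated over untreated, with the median over all sites at 0.01, and they say which sites gained or lost reads relative to the other listed sites. Without TMM scaling, on library totals alone, 308 sites were higher and 222 lower, so that 58.1% of called sites were higher against 46.6% with it. The rise count is the less stable, at 144 without sample 3, and the DESeq2 Wald test called 120 higher and 160 lower. In knockdown cells 365 of 1001 sites (36.5%) changed, 178 higher and 187 lower.

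**Figure D2:**
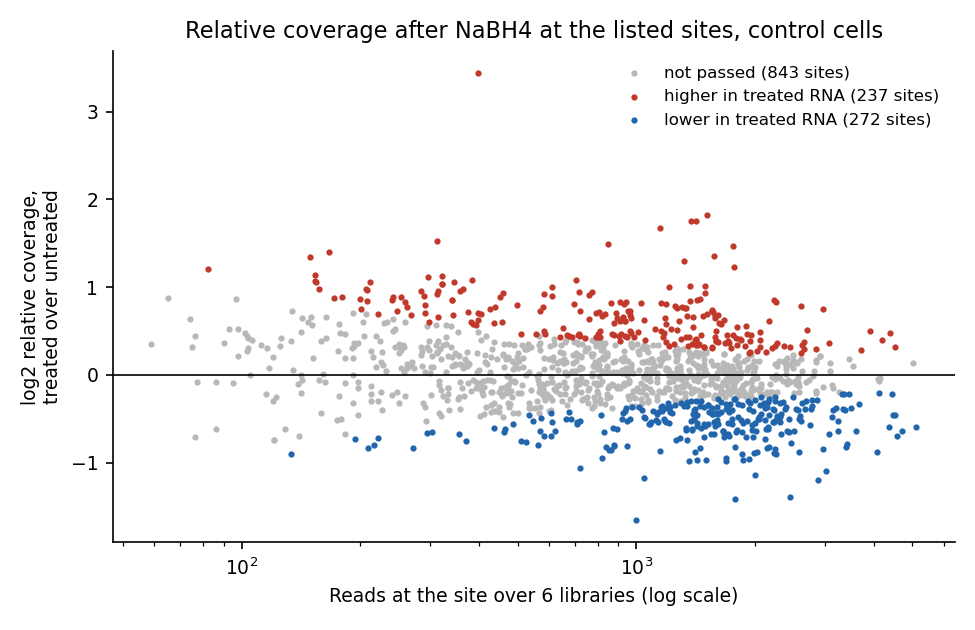
Change in relative coverage (log2, treated over untreated) against reads over the 6 control libraries (log axis), with 1 point for each of 1352 sites. Red points are the 237 sites higher and blue points the 272 sites lower in treated RNA by edgeR, and most deep sites that changed lie below 0.

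The largest rise was at an adenosine of CPT1A, which carries long-chain fatty acids into mitochondria, at chr11:68755538 on the minus strand. It had 144, 127 and 103 reads in the treated libraries. The untreated libraries had 6, 12 and 6. All treated values lay far above all untreated ones, with a log2 change of 3.44 ± 0.30 (SE) and an edgeR adjusted p of 3.5e-28. The base was read as G in 18.7% ± 5.99 of treated reads (SD, n = 3), and the 24 untreated reads allow a level of up to 12.5% there. Pair by pair the level lay above the limit in 0 of 3. A second CPT1A site, a guanosine, had 80, 50 and 66 treated and 29, 51 and 36 untreated reads. Those groups overlapped in reads as counted.

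A row of 3 neighbouring sites of PTMS, parathymosin, an acidic nuclear protein, rose together at chr12:6766555, 6766558 and 6766560. The last of them had 391, 399 and 458 treated reads. It had 55, 72 and 131 untreated reads. The sites lie within a read of each other, so they are not separate measurements, and their log2 changes lay between 1.75 and 1.82. The reference bases were C, C and T, and their mismatched reads in the treated libraries were 4, 5 and 12, then 5, 6 and 11, then 4, 5 and 11.

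An adenosine of FOXD1, a forkhead transcription factor, followed with 303, 281 and 355 treated against 53, 89 and 67 untreated reads. Its log2 change was 1.68 ± 0.16 (SE). MED18, a subunit of the Mediator complex, had 88, 95 and 68 treated reads and 15, 30 and 17 untreated ones at an adenosine. PPP1R9B, or spinophilin, a scaffold of protein phosphatase 1, rose by 1.49 ± 0.18 (SE) on the log2 scale at a guanosine. COL18A1, the collagen XVIII chain that yields endostatin, had 418, 395 and 584 treated and 87, 115 and 159 untreated reads, a change of 1.47 ± 0.12 (SE). These sites were taken from those that passed the edgeR test, so passing it was part of their choice.

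The largest fall was at a uridine of ACTR2, the ARP2 subunit of the complex that branches actin filaments, at chr2:65269359 on the plus strand. Treated libraries had 111, 90 and 108 reads. Untreated libraries had 210, 228 and 251. The log2 change was -1.66 ± 0.16 (SE), with an edgeR adjusted p of 1.0e-23, and treated RNA was lower although its libraries held more reads in all. CCDC88A, or girdin, an actin-binding protein, had 206, 217 and 192 treated and 349, 408 and 409 untreated reads, a change of -1.42 ± 0.11 (SE). FUBP1, a single-strand DNA and RNA binding regulator, changed by -1.39 ± 0.10 (SE). These 3 sites had an A or T as reference base.

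KIF3A, a kinesin-2 motor subunit, had 341, 380 and 379 treated and 514, 589 and 687 untreated reads at a guanosine. PSMD8, a subunit of the proteasome's regulatory particle, had 126, 126 and 149 treated and 180, 242 and 223 untreated reads at a uridine. SUCLG1, a subunit of succinyl-CoA ligase in the citric acid cycle, changed by -1.14 ± 0.10 (SE) at a cytidine. The PRMT2 guanosine printed above had 365, 397 and 434 treated and 497, 656 and 665 untreated reads, a change of -1.10 ± 0.09 (SE). DST, dystonin, a linker of the cytoskeleton, closed the list at -1.07 ± 0.17 (SE). At none of these rises and falls did the scaled reads of treated and untreated libraries overlap, which their choice by size of change makes likely.

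**Figure D3:**
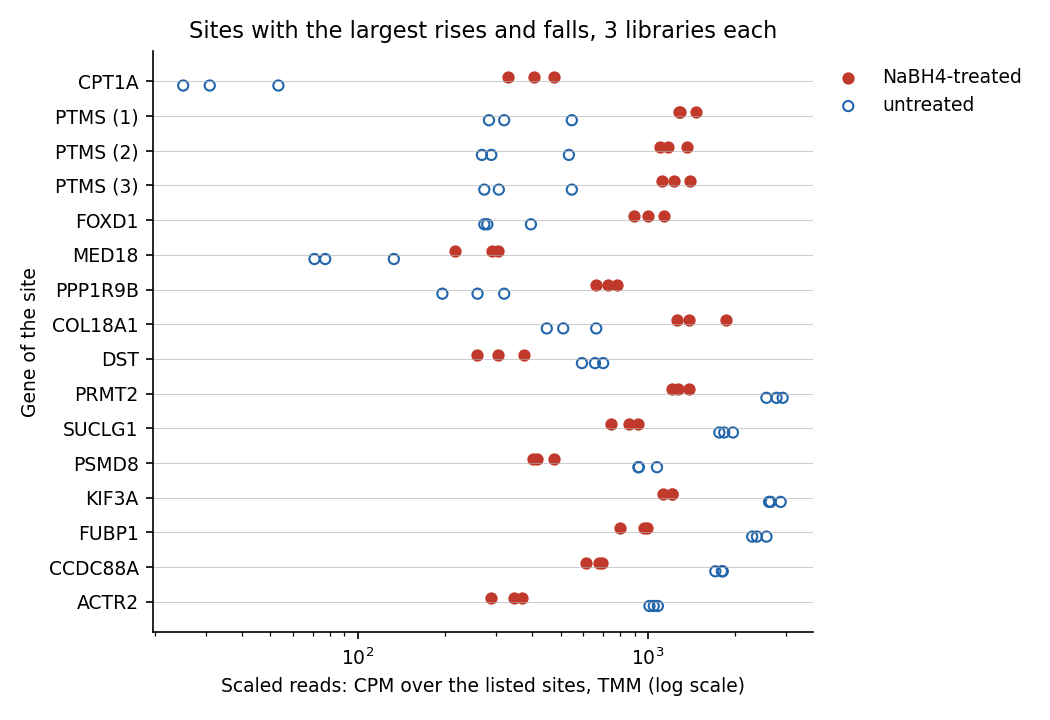
Scaled reads (TMM-scaled CPM over the reads of the listed sites, log axis) at the 8 sites with the largest rise and the 8 with the largest fall, by gene. Filled red points are the 3 treated and open blue points the 3 untreated libraries, which do not overlap at any of these sites. The sites were chosen by size of change among those past the edgeR test. PTMS appears with its 3 neighbouring sites.

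The deepest sites show the change where counting error is smallest. SYNCRIP, an hnRNP-like RNA-binding protein, had 765, 838 and 862 treated and 717, 961 and 980 untreated reads, and its relative coverage fell by 0.60 on the log2 scale. NRBP1, a pseudokinase, had 850, 757 and 634 treated and 715, 889 and 850 untreated reads, a change of -0.64 ± 0.09 (SE). SMC6, of the SMC5/6 DNA repair complex, changed by -0.70 ± 0.09 (SE), and the NOP10 guanosine printed above by -0.46 ± 0.09 (SE). GANAB, the catalytic subunit of glucosidase II, rose by 0.32 ± 0.09 (SE). SERP1, a protein of the ER translocon, had the change nearest 0 of the 6, 0.13 ± 0.08 (SE), and did not pass the test with an edgeR adjusted p of 0.226. Across all sites, the change correlated with reads over the 6 libraries at Spearman's rho -0.263 and, with log2 reads, Pearson's r -0.259, across 1352 sites of the same libraries that are not independent replicates. When sites were split in 5 classes by depth, 18.8% of the shallowest class were higher and 3.69% lower, with a median of 0.22. In the deepest class, 14.4% were higher and 43.2% lower, with a median of -0.18.

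Site by site, adenosines again had the lowest median change, and guanosines rather than cytidines the highest. Of the adenosine sites, 13.2% were higher and 26.3% lower in treated RNA. Of the cytidine sites, 22.3% were higher and 17.3% lower, and of the guanosine sites 21.6% and 14.2%. Uridine sites were nearly even, at 15.3% higher and 16.2% lower. The median log2 change was -0.10 at A, 0.07 at C, 0.11 at G and 0.01 at T. Adenosine sites were also the deepest, with a median of 1280 reads over 6 libraries against 580.5 at uridines, and the part of depth in the difference between bases was not tested. Cytidine sites with T as the most frequent other base, the change that ac4C gives, had 52 higher and 47 lower of 223.

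The change in relative coverage was weakly related to the GC content of the gene's promoter, which is not that of the site itself. When sites were split in 4 classes by the GC content of their gene's RefSeq promoter window, known for 1136 sites (84.0%), 10.6% were higher and 31.0% lower in the class of lowest GC. In the class of highest GC, 23.2% were higher and 11.3% lower. The median log2 changes of the 4 classes, from lowest to highest GC, were -0.07, -0.03, 0.07 and 0.05. Spearman's rho between promoter GC and the change was 0.163 across these sites. By chromosome, the gene-dense and GC-rich chromosome 19 had 35.2% of its 108 sites higher and 9.26% lower, and chromosome 16 had 30.0% higher and 13.0% lower. Chromosome 22, also gene-dense and GC-rich, had 7.41% of 27 sites higher and 7.41% lower. Chromosome 2 had 5.66% of 106 sites higher and 33.0% lower. Of the 15 sites on chromosome 13, 0 were higher and 5 lower. In knockdown cells, at their own sites, the class of lowest GC had 10.4% higher and 25.1% lower. Their class of highest GC had 19.4% higher and 12.3% lower, and Spearman's rho was 0.168 across 844 sites. Chromosome 19 had 27.1% higher and 12.5% lower in knockdown cells, while chromosome 16 had 17.5% higher and 21.1% lower. The groups were not tested against each other.

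Position in the gene gave another division. With the gene span cut in 4 equal stretches from the 5′ end, 28.2% of the 255 sites in the first were higher and 18.8% lower. The next stretch had 12.3% higher and 26.5% lower, and the third had 14.2% and 25.1%. In the last stretch, where 570 sites lay, 16.3% were higher and 16.1% lower. In knockdown cells the first stretch had 13.4% of 157 sites higher and 29.3% lower, the other way round from the control, at other sites. The difference between the groups was not tested.

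Where distant sites of a gene both changed, most moved the same way. In 136 genes with sites more than 300 bases apart, the deepest site changed in 65 and the deepest site far from it in 43. Of all control sites, 37.6% changed. Both sites changed in 31 genes, of which 14 rose at both, 14 fell at both and 3 moved in opposite directions. Whether 31 is more than the counts of 65 and 43 would give was not tested. SFPQ, a splicing factor of paraspeckles, rose by 1.23 and 0.78 on the log2 scale, and MAZ, a zinc finger transcription factor, by 1.00 and 0.87. SRM, spermidine synthase, had 0.67 and 0.90, and TRIM28, a corepressor of KRAB zinc fingers, 0.62 and 0.72. Among falls, TXNRD1, thioredoxin reductase, had -0.94 and -0.51, and CENPF, a kinetochore protein, -0.57 and -0.84. HNRNPH1, which binds G-rich RNA, had -0.45 and -0.44. IGF2R, the receptor that carries mannose 6-phosphate proteins to lysosomes, went both ways at -0.48 and 0.35, as did MINK1, a kinase, at 0.38 and -0.37, and DAZAP1, an RNA-binding protein, at -0.25 and 0.67. These genes were named after their values were seen.

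The knockdown libraries give the same measure in other RNA. Only 1 site was listed in both groups, but 195 genes had a site in each. At the deepest site of each gene, 87 of the 195 changed in control and 79 in knockdown cells. Over all sites, 37.6% changed in control and 36.5% in knockdown cells. Of the 195 genes, 42 changed in both groups, 24 of them higher in both, 12 lower in both and 6 in opposite directions. Whether 42 is more than the counts of the separate groups would give was not tested. Spearman's rho of the changes was 0.392 over the 195 genes, whose sites lay a median of 4586 bases apart. SNRPB, a core protein of the spliceosome, rose by 1.01 ± 0.13 (SE) in control and 0.59 ± 0.10 in knockdown cells on the log2 scale. TIMM50, of the inner mitochondrial import machinery, had 0.77 ± 0.22 and 0.75 ± 0.13. SF3A3, of the U2 snRNP, had -0.64 ± 0.09 and -0.55 ± 0.09, and IQGAP1, a scaffold of actin and small GTPases, -0.67 ± 0.09 and -0.61 ± 0.09. Another IQGAP1 site of the control, far from the deepest, had 0.10 and did not pass. ZNF780B, a zinc finger protein, was opposite, at 1.40 ± 0.34 and -0.41 ± 0.11.

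Gene groups were set beside the background of 17.5% higher and 20.1% lower. Focal adhesion and actin genes had 18 sites in 12 genes, of which 6, in 4 genes, rose and 3 fell, with a median of 0.21. LAMA5, a laminin chain of basement membranes, had the highest value, 128, 129 and 167 treated against 43, 52 and 64 untreated reads at a guanosine, a change of 0.92 ± 0.19 (SE). A uridine of LAMA5 rose by 0.62 ± 0.12 (SE). PXN, or paxillin, an adaptor of focal adhesions, rose by 0.35 at each of a pair of uridines that lie within a read of each other, while its cytidine had 0.18 and did not pass. ROCK1, the kinase that drives actomyosin contraction, changed by -0.44 ± 0.12 (SE). The group's lowest value was at DIAPH1, a formin that extends actin filaments.

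Solute carriers, which move small molecules over membranes, had 23 sites, 5 higher and 2 lower, with a median of 0.25. SLC66A2 had the highest value at 0.98 ± 0.24 (SE). The potassium chloride cotransporter SLC12A7 had 375, 342 and 337 treated and 148, 146 and 165 untreated reads, a rise of 0.70 ± 0.12 (SE). SLC7A5, the large neutral amino acid transporter, rose by 0.46 ± 0.17, and SLC38A2, a neutral amino acid transporter, changed by -0.39 ± 0.10 at 1 of its sites.

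Chaperone sites went lower or did not pass. Of 13 sites in 8 genes, 0 were higher and 6 lower, with a median of -0.22. HSPH1, an HSP110 protein, had 110, 90 and 84 treated and 106, 120 and 98 untreated reads at a guanosine, a change of -0.70 ± 0.18 (SE). HSPA9, the mitochondrial HSP70, had 323, 412 and 363 treated and 373, 389 and 366 untreated reads, a change of -0.54 ± 0.10. HSP90AA1, the inducible cytosolic HSP90, fell at a guanosine and a uridine, by 0.37 and 0.25. The highest value, at DNAJC5, was 0.16 ± 0.16 and did not pass.

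Chromatin regulators had 0 higher and 5 lower of 14 sites, with a median of -0.22. KDM5B, which removes methyl groups from histone H3 lysine 4, changed by -0.72 ± 0.13 (SE), KDM1A by -0.54 ± 0.17 and KMT2D, a methyltransferase of the same lysine, by -0.48 ± 0.09. The highest value, 0.57 ± 0.25 at KMT2B, did not pass, with an edgeR adjusted p of 0.0515. Splicing factors, helicases and hnRNPs had 4 higher (16.0%) and 8 lower (32.0%) of 25 sites, with a median of -0.09. HNRNPH1 and SF3A3, given above, were among the falls, as was a guanosine of DHX16 at -0.53 ± 0.14 (SE). Other DHX16 sites had 0.08 and 0.34 and did not pass. HNRNPD, or AUF1, which binds AU-rich elements, had 621, 581 and 643 treated and 175, 293 and 299 untreated reads, a rise of 0.79 ± 0.10. SRSF2, a serine and arginine rich splicing factor, rose by 0.77 ± 0.14.

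Ribosomal proteins had 4 sites, 0 higher and 2 lower, and RPL22L1 changed by -0.82 ± 0.09 (SE). Translation factors had 1 higher and 2 lower of 8 sites. EIF3F, a subunit of the initiation factor that recruits the small ribosomal subunit, rose by 0.62 ± 0.16, and the stress kinases EIF2AK3 and EIF2AK2, which the symbol rule takes in, had -0.53 ± 0.17 and -0.51 ± 0.12. Mitochondrial respiration had 0 higher and 2 lower of 8 sites, with NDUFA12 of complex I at -0.65 ± 0.11, and its highest value, 0.42 ± 0.36 at the ATP synthase subunit ATP5MG, did not pass. Zinc finger genes had 3 higher and 3 lower of 17, from -0.80 ± 0.28 at ZNF451 to 1.40 ± 0.34 at ZNF780B. RNA modification genes had 1 higher and 1 lower of 6, ALKBH5, an m6A demethylase, at 0.45 ± 0.12 and FTSJ3, an rRNA 2′-O-methyltransferase, at -0.55 ± 0.11.

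Genes that the study followed up were among those measured. The NAT10 transcript had a cytidine at chr11:34127524 with 80, 114 and 87 treated and 59, 94 and 59 untreated reads, and the change of -0.08 ± 0.20 (SE) did not pass. Its mismatched reads were 3, 3 and 6, all of them T, a level of 4.43% ± 2.21 (SD, n = 3). The ITGB5 cytidine printed above had 501, 496 and 458 treated reads. Its untreated libraries had 270, 315 and 352. The groups did not overlap in counts, but relative to the other sites the change was 0.14 ± 0.10 (SE), with an edgeR adjusted p of 0.274. T made up 0.819% ± 0.329 of its treated reads (SD, n = 3), against a limit of 0.32% set by 0 of 937 untreated reads. Pair by pair the levels were 1.20%, 0.605% and 0.655%, against limits of 1.11%, 0.952% and 0.852%, so that they lay above the limit in 1 of 3 pairs.

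Relative coverage was lower in treated RNA at the DIAPH1 cytidine, with 255, 269 and 274 treated and 275, 313 and 333 untreated reads and a change of -0.70 ± 0.11 (SE). There T and G were tied at 5 reads each, and each was missing from 1 treated library. A cytidine of BCAR1, the adaptor p130Cas, had -0.48 ± 0.10 and was led by T, while its guanosine had 0.24 ± 0.13 and did not pass. The KDM4A cytidine printed above changed by -0.30 ± 0.10, and a second KDM4A cytidine had 0.30 ± 0.17 and did not pass. PPP1R12C, a regulatory subunit of myosin phosphatase, and JUN, a subunit of the AP-1 transcription factor, rose by 0.33 ± 0.10 and 0.35 ± 0.13 at cytidines. At both cytidines the scaled reads of treated and untreated libraries overlapped. Pooled over the treated libraries, the most frequent other base at both was A. In sample 1 it was T, with 5 T and 1 A reads at PPP1R12C and 3 T and 0 A reads at JUN. An adenosine of JUN had 0.29 ± 0.15 and did not pass. MBD4, a thymine DNA glycosylase, had -0.14 ± 0.18 and DHX30, a mitochondrial RNA helicase, -0.03 ± 0.15. Neither of these passed.

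All 12 kinds of base change occurred in treated RNA, and C-to-T was the third by its share of mismatched reads. The treated libraries held 6316, 6410 and 6493 mismatched reads. A-to-T made up 18.4%, 18.3% and 17.6% of them in samples 1 to 3. A-to-G averaged 16.6% ± 0.709 and C-to-T 16.0% ± 0.504 (SD, n = 3 treated libraries). The mean of A-to-T lay above that of C-to-T by more than either SD, with 524 adenosine and 394 cytidine sites behind them. Per reference base the order of A-to-T and C-to-T turned. The level averaged over the sites of a base was 1.49% ± 0.077 for C-to-T and 1.14% ± 0.0735 for A-to-T (SD, n = 3). T led at 56.6% of cytidine against 44.1% of adenosine sites. A-to-G stayed above C-to-T by this level, at 1.67% ± 0.101. T-to-G and G-to-T also lay above C-to-T by it, at 1.74% ± 0.0807 and 1.69% ± 0.129. The highest such averages were those of T-to-C, 3.11% ± 0.303, and G-to-A, 2.85% ± 0.287. By share of mismatched reads, C-to-T was followed by C-to-G at 9.01% ± 0.305, G-to-A at 7.41% ± 0.548 and G-to-T at 6.80% ± 0.257. T-to-C and T-to-G had 6.54% ± 0.449 and 6.48% ± 0.378, A-to-C 4.45% ± 0.298 and C-to-A 4.08% ± 0.271, and T-to-A and G-to-C were rarest at 2.41% ± 0.28 and 2.12% ± 0.26. The transitions, A-to-G, G-to-A, C-to-T and T-to-C, made up 46.6% ± 0.466.

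**Figure D4:**
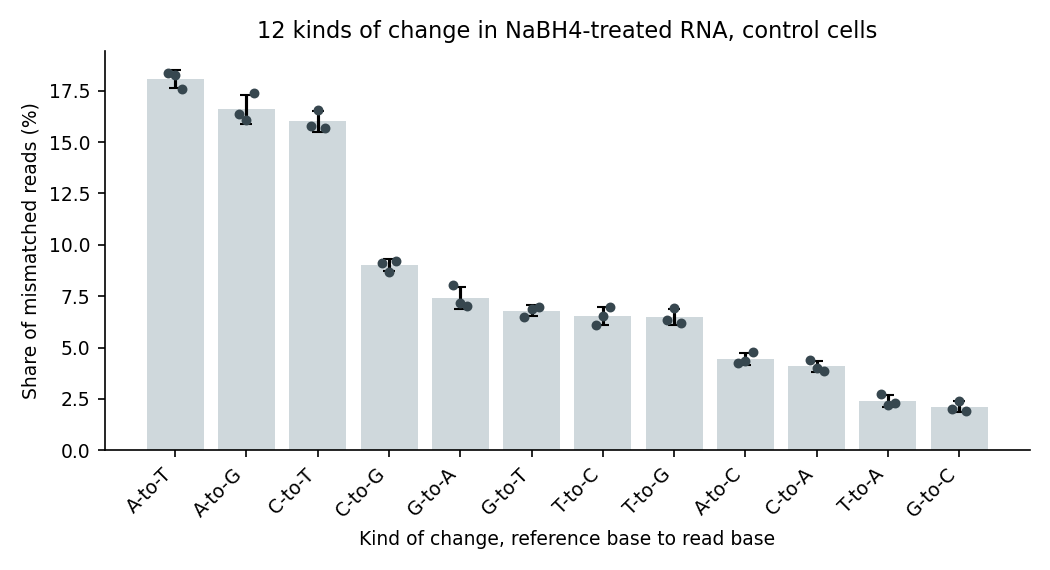
Share of the mismatched reads of treated RNA (percent) for each of the 12 kinds of change, named as reference base to read base. Bars and whiskers are mean and SD over 3 treated libraries and points are the libraries. A-to-T, A-to-G and C-to-T stand above the others, between 16.0% and 18.1%.

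Pooled over reference bases, T and G were the more frequent bases of mismatched reads. Of all mismatched reads, 40.9% ± 0.785 were T, 32.1% ± 0.638 G, 13.9% ± 1.08 A and 13.1% ± 0.694 C (SD, n = 3). At guanosine sites A led most often, at 114 of 218, and at uridine sites C, at 103 of 216. Of the 394 cytidine sites, 223 had mostly T among their mismatched reads, 110 G and 46 A, with 15 ties. At adenosine sites, G led at 234 of 524 and T at 231. At 40 cytidine sites no treated read was T, while T was present in every treated library at 215. The mean C-to-T level was at least 5% at 16 cytidine sites and at least 2% at 81. Knockdown cells had the same 5 changes at the top, with C-to-T at 15.4% ± 0.253 of mismatched reads at their own sites, a difference not tested.

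Many sites did not show the same base in every library. The most frequent other base was shared by the 3 treated libraries at 833 sites (61.6%), ties counted as shared, and at 692 when they were not. A single other base was seen at 331 sites, 2 at 650 and all 3 at 371. Guanosine sites were the most alike, with the same leading base at 75.7%, against 60.9% of cytidine, 58.3% of uridine and 57.6% of adenosine sites. By change, G-to-T sites had it shared at 82.4%, T-to-G at 74.7%, C-to-T at 66.4% and T-to-A at 32.0%. With 3 mismatched reads as the smallest count in a library, the leading base of a library can rest on 1 or 2 reads.

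Mismatch levels were low, and they followed depth. The median over sites was 2.11%, with 1.84% at A, 1.93% at C, 2.87% at G and 3.70% at T. Over the same 5 depth classes, from shallow to deep, the median fell from 8.11% to 3.49%, 1.97%, 1.41% and 1.20%, which the minimum of 3 mismatched reads in each library and the 1% floor bound from below. Sites led by T-to-C had the highest median, 5.71%, and the fewest treated reads, a median of 221. Sites led by A-to-T had 1.56% and 824 reads.

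The highest level of each change showed what single sites reached, among sites with at least 100 treated reads and 3 reads of the change in every treated library. G-to-T reached 21.4% ± 11.8 (SD, n = 3) at HIF1AN, the asparagine hydroxylase of HIF, with 7 of 33, 13 of 39 and 3 of 31 reads. A-to-G reached 18.9% ± 9.44 at BAD, a pro-apoptotic BCL2 family member, with 29.0%, 10.3% and 17.3% in samples 1 to 3. The libraries differed widely at both sites. T-to-G reached 15.0% ± 7.29 at REEP3, an ER shaping protein, the only site of the 12 with changed coverage, at -0.66 ± 0.25 (SE, log2).

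T-to-C reached 13.0% ± 5.62 at AHRR, the repressor of the aryl hydrocarbon receptor. C-to-G reached 12.9% ± 1.72 at TMEM242, with 11.1%, 13.0% and 14.5% in samples 1 to 3. G-to-A reached 10.5% ± 3.43 at SSR3, of the translocon-associated complex. C-to-T reached 9.93% ± 1.73 at MGRN1, a ubiquitin ligase, with 3 of 31, 3 of 36 and 4 of 34 reads, while its untreated libraries had 7, 26 and 17 reads without a mismatch, which allow up to 6%. The highest C-to-T level thus lay below the highest levels of 6 other changes. A-to-T reached 8.89% ± 1.24 at SCHIP1, T-to-A 5.42% ± 2.53 at TRIP12, C-to-A 5.23% ± 0.556 at PARP6, A-to-C 4.57% ± 1.39 at CCAR1, and G-to-C 3.55% ± 2.16 where DPAGT1 and H2AX overlap.

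Sites next to transcript starts had another mix of changes than the rest, a pattern seen in the data and then counted. Within 50 bases after a RefSeq start, on the strand of the gene, lay 49 control sites. Pooled over the 3 treated libraries, all 15 guanosines among them had T as their most frequent other base. These guanosines lay in 14 genes between bases 3 and 50 of the transcript, and 5 of them had another listed site within 10 bases. Elsewhere T led at 70 of 202 guanosine sites (34.7%) and A at 114 (56.4%). Of the reads mismatched at the 15 guanosines, 93.2%, 68.1% and 93.3% were T in samples 1 to 3, against 34.3%, 40.0% and 40.0% at the other guanosines. The lower value in sample 2 came with 16 C and 6 A reads beside 47 T reads. There another base was ahead of T at MEAF6, a subunit of histone acetyltransferase complexes, with 8 C and 3 T reads. The same held at both TSR3 sites (2 C and 1 T each), at IFT20 (2 C and 1 T) and at PRMT2 (4 A and 2 T). T was tied with another base at CCNL2 in sample 1, at PSMD12 in sample 2, and at GNAI2 and IFT20 in sample 3. G led at 5 of 6 uridines near a start, against 78 of 205 elsewhere (38.0%). At cytidines near a start, T and G each led at 10 of 22, while elsewhere T led at 213 of 357 (59.7%). No test was made, since the window was chosen with the values known, and knockdown cells had 7 sites near a start with 0 guanosines among them.

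Some of these guanosines are printed because T was their only other base in all 3 treated libraries or because they stand in a run of G. MRPL12, a protein of the mitochondrial large ribosomal subunit, had 7, 4 and 10 T reads of 304 treated reads in all. An adenosine and a cytidine beside it had 7, 4 and 10 G reads each, so that the same reads can carry the 3 mismatches. NUCKS1, a chromatin-associated DNA repair protein, had 4 T reads in each library, as did the adjacent cytidine, so that the same reads can carry both. PRKRA, the activator of the kinase PKR, had 4, 3 and 3 T reads. TSR3, which modifies 18S rRNA, had adjacent guanosines in a run, with 6, 1 and 7 and then 5, 1 and 7 T reads, and its coverage rose by 0.91 ± 0.18 and 0.94 ± 0.18 (SE, log2). Capitals mark the site, and strands and source are as above.
MRPL12, chr17:81703375-81703395, plus strand: cggctcgaatGcccggcagcc
NUCKS1, chr1:205750147-205750167, minus strand: acgggggagcGgggggctcgt
PRKRA, chr2:178451135-178451155, minus strand: gcaggaggcgGgggagtcgga
TSR3, chr16:1351828-1351848, minus strand: cgcggccgtgGggtggggagt

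**Figure D5:**
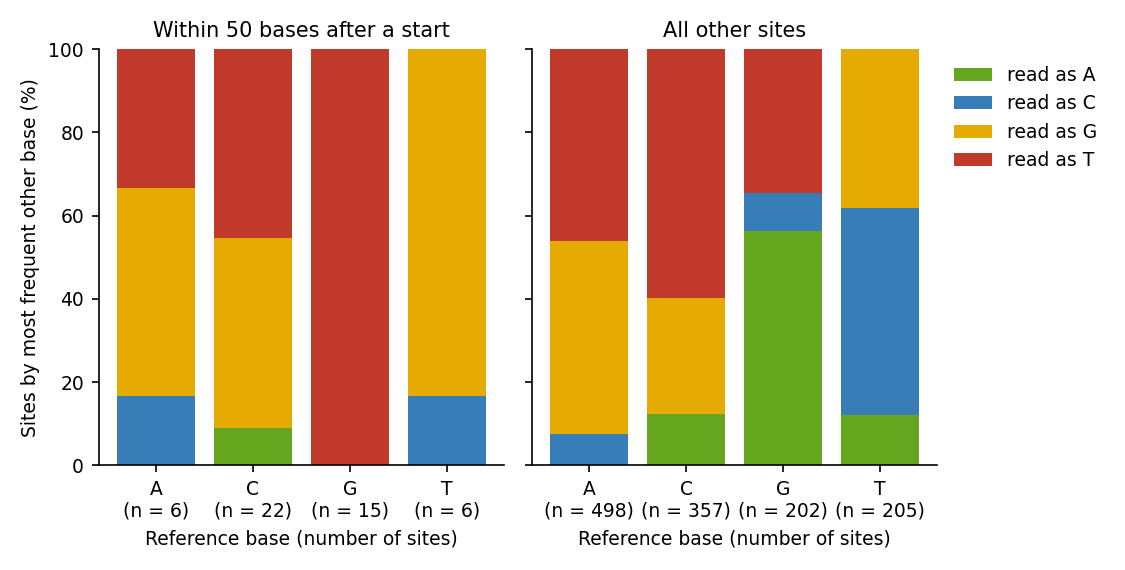
Sites by their most frequent other base (percent of sites without a tie), for each reference base, within 50 bases after a RefSeq transcript start (left) and at all other control sites (right). The number of sites stands under each bar. Mismatched reads were mostly T at all 15 guanosines near a start, while A led at 56.4% of the others.

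Cytidines with known surroundings were searched for a CCG triplet centred on the site, the context in which ac4C is known in rRNA. It was present on the strand of the site at 3 of 35 cytidines (8.57%), against 7.31% of all cytidines in the same stretch of all RefSeq windows. The paper reports CXXCXX motifs at most ac4C sites. A C lay 3 bases after the site at 10 of the 35 (28.6%), against 32.4% of all those cytidines. A C lay 3 bases before or after it at 17 (48.6%), against 52.4%. These differences were not tested. These letters were searched on that strand only, and 35 sites in promoter windows do not stand for the other cytidine sites.

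The untreated reads limit what 0 mismatches can show. A count of 0 allows a level of up to 3 reads of the depth, which had a median of 0.746% over sites when the 3 untreated libraries were pooled. All 1352 sites had a pooled treated level above it, as the listing makes likely. Taken pair by pair, where the untreated libraries had medians of 119, 140 and 143.5 reads at a site, the treated level was above the limit in all 3 pairs at 291 sites (21.5%). That share rose from 6.27% of the shallowest class to 48.3% of the deepest. At the other sites a mismatch level in untreated RNA like that of treated RNA was not excluded at this depth in at least 1 pair. Limits and intervals cover counting error only.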

How the data were processed

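Sites, strands and base counts were used as deposited. Per the labels and the study's methods, the authors trimmed reads with fastp 0.23.1, aligned them to GRCh38 with STAR 2.7.6a, collapsed reads by molecular identifiers and called sites with JACUSA jointly on the libraries of a group. featureCounts is named in the processing notes without a version. The deposited values are raw counts of A, C, G and T reads per site and library, with the fraction of mismatched reads that the authors derived from them. Columns of the authors' own comparison (a difference and its p-value) were not used. Total reads at a site were the sum of the 4 counts, and the library totals over the sites were 199984 to 305063.

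Relative coverage was tested with edgeR 4.0.16 (glmQLFit, glmQLFTest) in R 4.3.3, with TMM over the listed sites, no minimum count, the pair as a block and Benjamini-Hochberg adjustment over 1352 sites. DESeq2 1.42.0 was an alternative. Scripts were tested on simulated data. The pairing comes from the protocol. As a check, deviations of treated and untreated libraries of the same number correlated at 0.186, 0.0876 and 0.256, each the highest for its number. No libraries were duplicates, with chi-square per degree of freedom of 2.79 or more. Ratios were tested by exact permutation over pairs or samples.

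Named sites were those of genes the study followed, and the 8 largest rises and falls among sites past the coverage test. The highest level of each change, the 6 deepest sites, and the highest and lowest of each gene list were also named. Others are said to be chosen after their values were seen or illustrate a count. The members, lists and rules were chosen with earlier results of these data known. Gene names come from RefSeq spans of GRCh38.p14.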

Additional observations from a re-analysis of the deposited data

How the results depend on the processing

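Of 65 alternatives over 9 results, 58 kept direction and, for counts, stayed within 1.5 times. No ratio crossed 1 and no difference changed sign, while counts and shares have no sign to change. The difference between control and knockdown in the log2 ratio of reads fell from 0.19 to 0.12 without control sample 1, and ranged to 0.24. Without TMM the balance of calls turned, from 237 higher and 272 lower sites to 308 and 222. The DESeq2 Wald test called fewer sites, 120 higher and 160 lower. Leaving out 1 sample gave 144 to 198 higher sites, with 144 without sample 3, and 191 to 228 lower ones. Among sites with at least 300 treated reads, C-to-T made up 18.1% and A-to-T 21.6% of mismatched reads. The treated level lay above the untreated limit in each pair at 291 sites, and 79 of the 116 sites with at least 5 mismatched reads in every treated library shared the leading base, fewer because fewer sites entered; for the other changes the cause was not tested. Without the replicate block for the pairing, 174 sites were higher and 204 lower, the ratio of all reads was 1.34 and that of cytidines to other bases 1.08, each with an exact permutation p of 0.10. The listing and the untreated depth both limit the mismatch comparison.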
